A study of Mus musculus with 2 samples.

Results

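Marker genes of the non-parenchymal cells of the liver were followed in Foxa2 HiChIP of liver from wildtype mice. The 37 markers were taken from a fixed list of gene symbols: 12 genes of Kupffer cells and leukocytes, 10 of sinusoidal endothelium, 10 of stellate cells and fibroblasts, and 5 of cholangiocytes. All 37 had a gene span among the 21631 protein-coding genes of chromosomes 1 to 19 and X. No marker was picked by its measured value, although the markers and lists were chosen with earlier results of these data known. Livers were collected 4 h after a single gavage. One library came from wildtype mice given GW4064, which activates FXR, the nuclear receptor for bile acids, in a vehicle of propylene glycol and Tween 80, and the other from wildtype mice given that vehicle alone. The labels give no sex, age or strain, and do not state how many animals each library holds. In HiChIP, DNA ends that lie close in the nucleus are ligated and then pulled down with an antibody, here an antiserum against the pioneer factor Foxa2. With 1 library per group there is no replicate check. Every ratio below compares these 2 libraries and not the treatments, and all intervals are 95% intervals that cover counting error only.

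Hepatocytes make up most of the mass of the liver, and the remaining cells line or surround its sinusoids and ducts. Kupffer cells are the resident macrophages of the sinusoid, and its fenestrated endothelium clears waste molecules from blood. Stellate cells store vitamin A and make collagen when activated, and cholangiocytes line the bile ducts. Foxa2 is known as a factor of hepatocytes and of the biliary epithelium. Whole tissue was used, so the contacts at a marker locus are those of all liver cells together, and a marker locus carries no information on the cell that a contact came from. The labelled tissue cannot be checked by expression, since only contacts were measured.

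In all, 22686004 contacts were listed for vehicle and 29003442 for GW4064, counted between 50 kb bins of mm10. On chromosomes 1 to 19 and X, 22.3% of vehicle contacts and 18.3% of GW4064 contacts joined different chromosomes, and 25.0% and 27.1% lay within a bin. A marker locus is every bin that its gene span overlaps, 1 to 10 bins. Local contacts are contacts of a locus with other bins up to 1 Mb away on the same chromosome, scaled to equal totals of local contacts before a ratio was taken. The marker loci held 102 to 1234 local contacts in vehicle (median 261) and 122 to 1890 in GW4064 (median 307). A locus is called lower or higher in the GW4064 library when the log2 ratio of its scaled contacts was at least 0.32 from 0 and its exact conditional binomial interval excluded no difference.

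Of the 37 marker loci, 8 were lower and 0 were higher. Over the 17404 protein-coding loci that held 50 local contacts or more, 28.0% were lower and 1.54% higher, so the markers' 21.6% lies near the background and is not a result about the markers. At 1.5-fold, 4 markers were lower against 9.10% of all loci, and 0 were higher against 0.161%. The median log2 ratio of the 37 loci was -0.10, beside -0.14 over all protein-coding loci. Of 29 distinct loci of 30 hepatocyte genes, such as albumin and the fibrinogen chains, 17 were lower (58.6%) with a median of -0.42. The split depends on the scaling, because the median protein-coding locus itself lay at -0.14. Scaled to that median, 5 markers were lower and 1 higher, beside 15.7% and 7.81% of all loci, and scaled to equal totals of all contacts the markers also gave 5 and 1.

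Most markers called lower lay in gene-rich surroundings. Gene density is the number of protein-coding genes in the 21 bins around a locus, and all protein-coding loci were divided into 5 classes by it. In the sparsest class, with 1 to 7 genes, the median log2 ratio of all loci was 0.02 and 5.35% were lower. In the densest class, with 29 to 75 genes, these values were -0.38 and 55.7%. Of the 18 markers in the 2 sparsest classes, none was lower, beside 5.35% and 14.6% of all loci in those classes. Of the 15 markers in the 2 densest classes, 7 were lower, beside 42.6% and 55.7% of all loci there. These counts lie near the class shares and are not a result about the markers. The other marker called lower, Cdh5, has 17 genes. It lies in the middle class, which holds 4 markers and where 26.6% of all loci were lower. Across the 37 markers the log2 ratio and gene density had r = -0.619 (Pearson) and rho = -0.577 (Spearman). Across all 17404 loci r was -0.409. Those values are given as a description, since loci share libraries and neighbours share contacts. Loci with the gene densities of the markers would on average be lower in 27.5% of cases and higher in 1.59%.

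**Figure D1:**
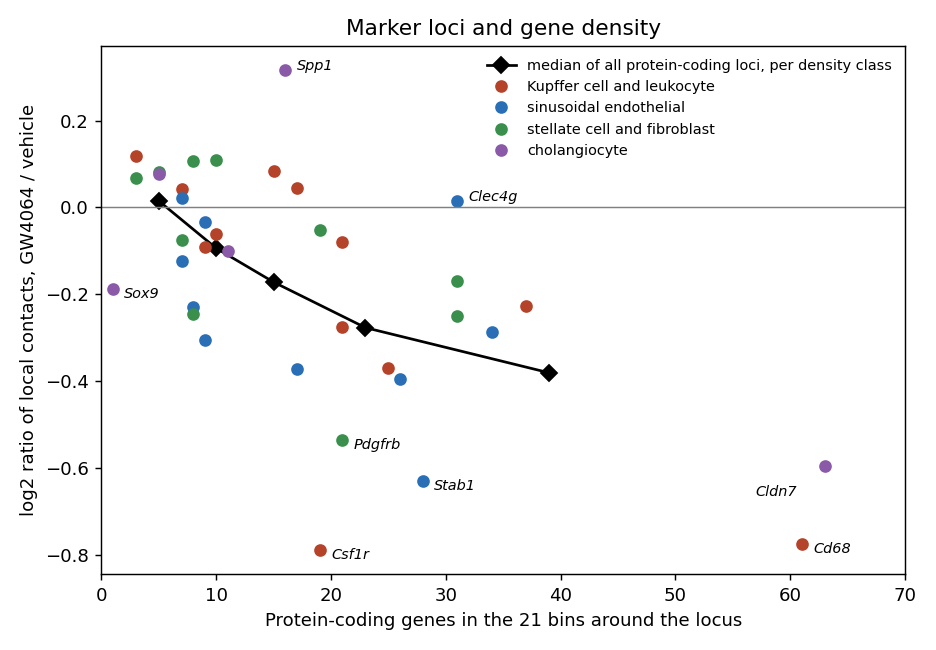
Log2 ratio of local contacts (GW4064 over vehicle) of the 37 marker loci against the number of protein-coding genes in the 21 bins around each, coloured by cell type, with the median of all protein-coding loci in each density class as black diamonds. The medians run from 0.02 to -0.38, and Cd68 and Cldn7, with 61 and 63 genes, lie at the dense end.

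Against loci of their own density class, few markers stood apart. The interval lay wholly below the median of its class for 3 of 37 markers (Cd68, Csf1r and Stab1), as it did for 15.9% of all loci. It lay wholly above that median for 5 markers (Clec4g, Lrat, Acta2, Reln and Spp1), as it did for 16.6% of all loci. The median difference of the 37 markers from their class was 0.03 on the log2 scale, and that of the hepatocyte loci was -0.22.

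**Figure D2:**
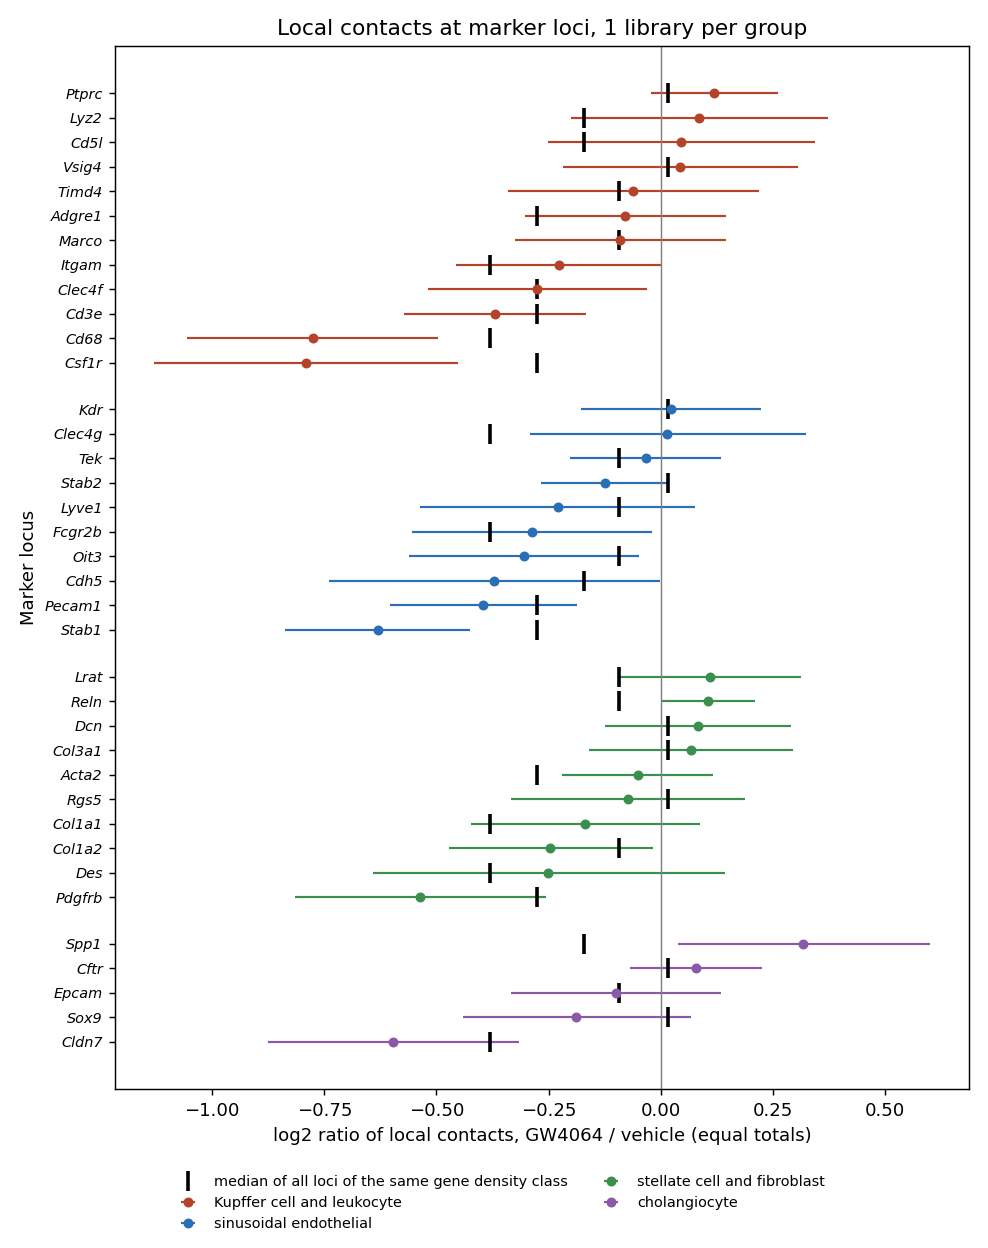
Log2 ratio of local contacts (GW4064 over vehicle) of each marker locus, with exact 95% counting intervals as bars and the median of all protein-coding loci of the same gene density class as a black tick. Csf1r and Cd68 lie lowest, at -0.79 and -0.78, and Spp1 highest, at 0.32.

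Among Kupffer cell and leukocyte markers, 3 of 12 loci were lower and 0 higher, with a median of -0.09. The mean of the medians of their density classes was -0.20, and the median difference from the class was 0.03. Loci with the same densities would be lower in 31.2% of cases and higher in 1.47%. Csf1r, the receptor for the growth factor that maintains macrophages (chromosome 18, 61105572 to 61131139), held 164 local contacts in vehicle and 135 in GW4064. Its log2 ratio was -0.79 (interval -1.13 to -0.45), the lowest of the 37. Cd68, a lysosomal glycoprotein of macrophages (chromosome 11, 69664213 to 69666170), held 237 and 197 contacts. It had -0.78 (-1.06 to -0.50), and its contacts between chromosomes and within its bin pointed the same way, at -0.70 (-1.08 to -0.33) and -0.68 (-1.14 to -0.22). For Csf1r, contacts within its bin had -0.03 (-0.46 to 0.40). Cd3e, a chain of the T cell receptor complex, was the third, with 385 and 424 contacts and -0.37 (-0.57 to -0.17).

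The other Kupffer cell and leukocyte markers were not called. Clec4f, a lectin of Kupffer cells (chromosome 6, 83644542 to 83656116), had 261 and 307 contacts and a ratio of -0.28 (-0.52 to -0.03), equal to the median of its density class. Timd4, a receptor for dying cells on resident macrophages, held 187 and 255 contacts and had -0.06 (-0.34 to 0.22). Marco, a scavenger receptor, had -0.09 (-0.33 to 0.14). Adgre1, which encodes the classical surface antigen of mouse macrophages, had -0.08 (-0.30 to 0.15), and Itgam, an integrin of myeloid cells, had -0.23 (-0.46 to 0.00). Values above 0 were found at 4 loci. Ptprc, the common leukocyte phosphatase (chromosome 1, 138062859 to 138175756), had 674 contacts in vehicle and 1041 in GW4064, a ratio of 0.12 (-0.02 to 0.26). It lies in a gene-poor region with 3 genes in 21 bins. Lyz2, lysozyme of myeloid cells, had 0.08 (-0.20 to 0.37). Cd5l, a protein that macrophages secrete, had 0.05 (-0.25 to 0.34), and Vsig4, a complement receptor of Kupffer cells on chromosome X, had 0.04 (-0.22 to 0.31). Summed over the 12 loci, local contacts had a log2 ratio of -0.14 (-0.21 to -0.07). Without Ptprc the sum had -0.21 (-0.29 to -0.14), so the size of the sum rests in part on 1 locus.

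Promoter sequence was available from RefSeq (GRCm38.p6, the same assembly as mm10) for 27 of the 37 markers, as windows from 250 bases before to 50 bases after a start site. The forkhead letters TGTTTAC or TATTTAC, the core that Foxa proteins are known to bind, were searched on both strands. They were in 0 of the 27 markers' windows, in 4 of 23 hepatocyte genes with a window and in 6.29% of all protein-coding genes. This says only that those letters are not in these windows. The letters AGGAAGT, a core bound by ETS factors such as PU.1 of macrophages, were in 5 of the 27 markers, 3 of 10 Kupffer and leukocyte markers and 2 of 4 cholangiocyte markers, and in 10.4% of all protein-coding genes. They were in 0 of 6 endothelial and 0 of 7 stellate markers. The ETS letters were searched after the first search had been seen. Stretches of 3 markers that carry them and lie wholly before the annotated gene span are shown: a myeloid gene near 0 (Lyz2), the highest locus of all (Spp1) and a locus called lower (Cldn7). The matches of Ptprc and Cd3e lie in windows of start sites inside their gene spans, or overlap the span, and are not printed. The stretches run 5′ to 3′ on the strand of the gene, with capitals for the match on either strand. A match is a description, and contacts in 50 kb bins do not resolve it.
Lyz2, chr10:117282321-117282417, minus strand: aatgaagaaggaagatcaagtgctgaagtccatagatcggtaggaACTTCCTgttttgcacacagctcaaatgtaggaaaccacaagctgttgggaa
Spp1, chr5:104434954-104435050, plus strand: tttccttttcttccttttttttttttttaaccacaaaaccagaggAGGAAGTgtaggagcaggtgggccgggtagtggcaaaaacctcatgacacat
Cldn7, chr11:69964616-69964712, plus strand: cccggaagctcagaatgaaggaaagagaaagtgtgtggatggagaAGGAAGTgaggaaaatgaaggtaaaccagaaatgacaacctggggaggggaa

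Sinusoidal endothelial markers had the lowest median of the 4 cell types, -0.26, with 3 of 10 loci lower and 0 higher. Their density classes had a mean median of -0.17, and loci with those densities would be lower in 27.8% of cases and higher in 1.56%. The order of the cell types was not shared by longer lists of further markers. There the endothelial median, -0.14, was the highest of the 4. Stab1, a scavenger receptor (chromosome 14, 31139017 to 31168651), held 407 local contacts in vehicle and 374 in GW4064 and had -0.63 (interval -0.84 to -0.43). Its relative Stab2, the hyaluronan receptor of the sinusoid (chromosome 10, 86841194 to 87008038), had 710 and 927 contacts, a ratio of -0.12 (-0.27 to 0.02). Stab1 lies among 28 genes in its 21 bins and Stab2 among 7. Pecam1, an adhesion molecule of endothelium, held 366 and 396 contacts and had -0.40 (-0.60 to -0.19). Cdh5, the cadherin of endothelial junctions, held 120 and 132 contacts and had -0.37 (-0.74 to -0.003), a call at the edge of the rule. Below 0 but short of a call lay Oit3 at -0.31 (-0.56 to -0.05), the Fc receptor gene Fcgr2b at -0.29 (-0.56 to -0.02) and Lyve1, another hyaluronan receptor, at -0.23 (-0.54 to 0.08). The receptors of endothelial growth factors lay near 0: Kdr, which binds VEGF, held 353 and 510 contacts and had 0.02 (-0.18 to 0.22), and Tek, the angiopoietin receptor, had -0.03 (-0.20 to 0.14). Clec4g, a lectin of the sinusoid, held 151 and 217 contacts and had 0.01 (-0.29 to 0.32) in a dense region whose class median was -0.38.

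Contacts within a bin are ligations inside 50 kb. By this measure 6 of the 10 endothelial loci were lower in the GW4064 library under the same rule and 0 higher. The background of all protein-coding loci was 23.5% lower and 2.06% higher. Stab1 held 201 and 184 such contacts, a log2 ratio of -0.60 (interval -0.89 to -0.30). Lyve1 held 142 and 125 and had -0.65 (-1.01 to -0.30), and Cdh5 held 121 and 107 and had -0.65 (-1.03 to -0.26). The other 3 were Pecam1 at -0.52, Fcgr2b at -0.40 and Stab2 at -0.33. Tek, at 0.06 (-0.13 to 0.25), and Clec4g, at 0.00 (-0.35 to 0.36), lay near 0. Summed over the 10 loci the log2 ratio was -0.27 (-0.35 to -0.19), beside -0.15 for loci of the same density. The longer list of further endothelial markers had -0.16 (-0.21 to -0.10) beside -0.12. Hepatocyte genes had -0.26 (-0.32 to -0.20) beside -0.14, so a low value by this measure is not particular to endothelial markers. That the endothelial list is described by this measure was decided with its values in view. Immunoprecipitation of a bin and the number of ligations in it cannot be told apart. Over all 37 markers, 11 were lower and 2 higher by contacts within a bin, and 6 of the 8 loci called lower by local contacts were among the 11.

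Stellate cell and fibroblast markers had 1 of 10 loci lower and 0 higher, with a median of -0.06. Loci with the same densities would be lower in 25.6% of cases and higher in 1.69%. Pdgfrb, the receptor of platelet-derived growth factor (chromosome 18, 61045127 to 61085067), had 217 and 213 contacts, a ratio of -0.54 (interval -0.82 to -0.26). It is the direct neighbour of Csf1r: their bins adjoin, 29 vehicle and 21 GW4064 contacts joined the 2 loci, and both were lower. Cd68 and Cldn7, 300 kb apart on chromosome 11, form another such pair, joined by 4 contacts in each library, and were both lower. The 8 loci called lower therefore come from 6 regions, and without Pdgfrb and Cldn7 there are 6 of 35.

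The extracellular matrix genes had values on both sides of 0. Col1a1 and Col1a2, the chains of type I collagen, had -0.17 (interval -0.42 to 0.09) and -0.25 (-0.47 to -0.02), and Col3a1, of type III collagen, had 0.07 (-0.16 to 0.30). Dcn, the proteoglycan decorin, held 322 and 485 contacts and had 0.08 (-0.13 to 0.29). Contacts within a bin gave a different order. Col3a1 held 87 and 178 of them, 0.57 (0.19 to 0.95), Dcn 178 and 319, 0.37 (0.11 to 0.65), and both were called higher, whereas Col1a1 held 212 and 220 and was lower at -0.42 (-0.69 to -0.14). Reln, a secreted glycoprotein of quiescent stellate cells and the longest marker, held 1234 and 1890 local contacts and had 0.11 (0.00 to 0.21), and Lrat, which esterifies vitamin A for storage, held 333 and 511 and had 0.11 (-0.09 to 0.31). The contractile and cytoskeletal markers Acta2 and Des had -0.05 (-0.22 to 0.12) and -0.25 (-0.64 to 0.14). Rgs5, a regulator of G protein signalling in pericytes, had -0.07 (-0.34 to 0.19). Summed over the 10 loci the ratio was -0.01 (-0.07 to 0.05), beside -0.16 for the density classes, and 0.13 (0.07 to 0.19) when scaled to the median protein-coding locus. The sign of this sum thus depends on the scaling. Without Reln, the locus with the most contacts, it was -0.08 (-0.15 to 0.00).

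Cholangiocyte markers held both the highest locus of the 37 and 1 of the 8 called lower. Loci with the densities of these 5 markers would be lower in 21.5% of cases and higher in 1.75%. Spp1, which encodes osteopontin (chromosome 5, 104435111 to 104441053), held 167 local contacts in vehicle and 296 in GW4064. Its log2 ratio of 0.32 (interval 0.04 to 0.60) was just short of a call. Contacts of Spp1 between chromosomes went the other way, at -0.36 (-0.63 to -0.08), and its contacts of all classes had -0.03 (-0.16 to 0.11). Cftr, the chloride channel of bile duct cells, held 625 and 939 contacts and had 0.08 (-0.07 to 0.23). Epcam, an epithelial adhesion molecule, had -0.10 (-0.33 to 0.13). Sox9, the transcription factor of biliary progenitors, stands almost alone, with 1 gene in 21 bins, and had -0.19 (-0.44 to 0.07). Its local contacts were not called, but every other contact class of Sox9 was lower, with an interval that excluded no difference. Contacts of Sox9 within its bin had -0.41 (-0.82 to -0.01), those between chromosomes -0.52 (-0.86 to -0.19) and those of all classes -0.44 (-0.59 to -0.28). Cldn7, a claudin of tight junctions (chromosome 11, 69964779 to 69967886), had 223 and 210 contacts, a ratio of -0.60 (-0.88 to -0.32). The sum over the 5 loci had -0.04 (-0.14 to 0.05), beside -0.12 for the density classes, and without Cftr -0.14 (-0.27 to -0.01).

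In a longer list of further markers, lower loci numbered 9 of 20 for Kupffer cells and leukocytes, 5 of 20 for endothelium, 8 of 19 for stellate cells and fibroblasts, and 7 of 16 for cholangiocytes, with 0 higher in any of them. Loci with the densities of these lists would be lower in 44.2%, 22.8%, 23.2% and 28.9% of cases. Their medians were -0.32, -0.14, -0.32 and -0.35. Aif1, a calcium-binding protein of macrophages in the gene-rich histocompatibility region, had the lowest ratio of the longer Kupffer list at -0.93, and Ccr2, a chemokine receptor of monocytes, the highest at 0.24. Whether the lists differ from one another was not tested.

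By class and distance, single loci with many contacts carried several of the sums. Endothelial markers within a bin had -0.27 beside -0.15 for the density classes, and without Stab2, their locus with the most contacts, -0.25 (interval -0.35 to -0.16) beside -0.17. At 250 to 500 kb they had 772 vehicle and 897 GW4064 contacts and -0.32 (-0.46 to -0.18) beside -0.20, and without Stab2 -0.42 (-0.58 to -0.25) beside -0.23. In most other classes the endothelial sum without Stab2 lay at or above its density value.

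The stellate sum at 1 to 10 Mb was 0.01 (interval -0.06 to 0.09) beside -0.18, and without Reln -0.10 (-0.20 to 0.01). Over 10 Mb it was 0.01 (-0.04 to 0.07) beside -0.15, and 0.01 (-0.07 to 0.09) without Reln. The further stellate list gave other values: -0.17 (-0.25 to -0.09) beside -0.16 at 1 to 10 Mb, -0.22 (-0.28 to -0.15) beside -0.14 over 10 Mb, and -0.27 (-0.34 to -0.19) beside -0.12 within a bin. The cholangiocyte sum rested on Cftr. Over 10 Mb it was 0.06 (-0.04 to 0.16), and without Cftr -0.18 (-0.33 to -0.03) beside -0.16. Between chromosomes the sum was -0.01 (-0.10 to 0.09), the median of the 5 loci was -0.36, and without Cftr the sum was -0.23 (-0.35 to -0.10) beside -0.10. Further cholangiocyte markers had -0.21 (-0.27 to -0.15) beside -0.11 between chromosomes and -0.29 (-0.37 to -0.22) beside -0.16 within a bin. Kupffer markers had -0.05 (-0.13 to 0.03) within a bin beside -0.17, and without Ptprc -0.10 (-0.19 to -0.01) beside -0.19.

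**Figure D3:**
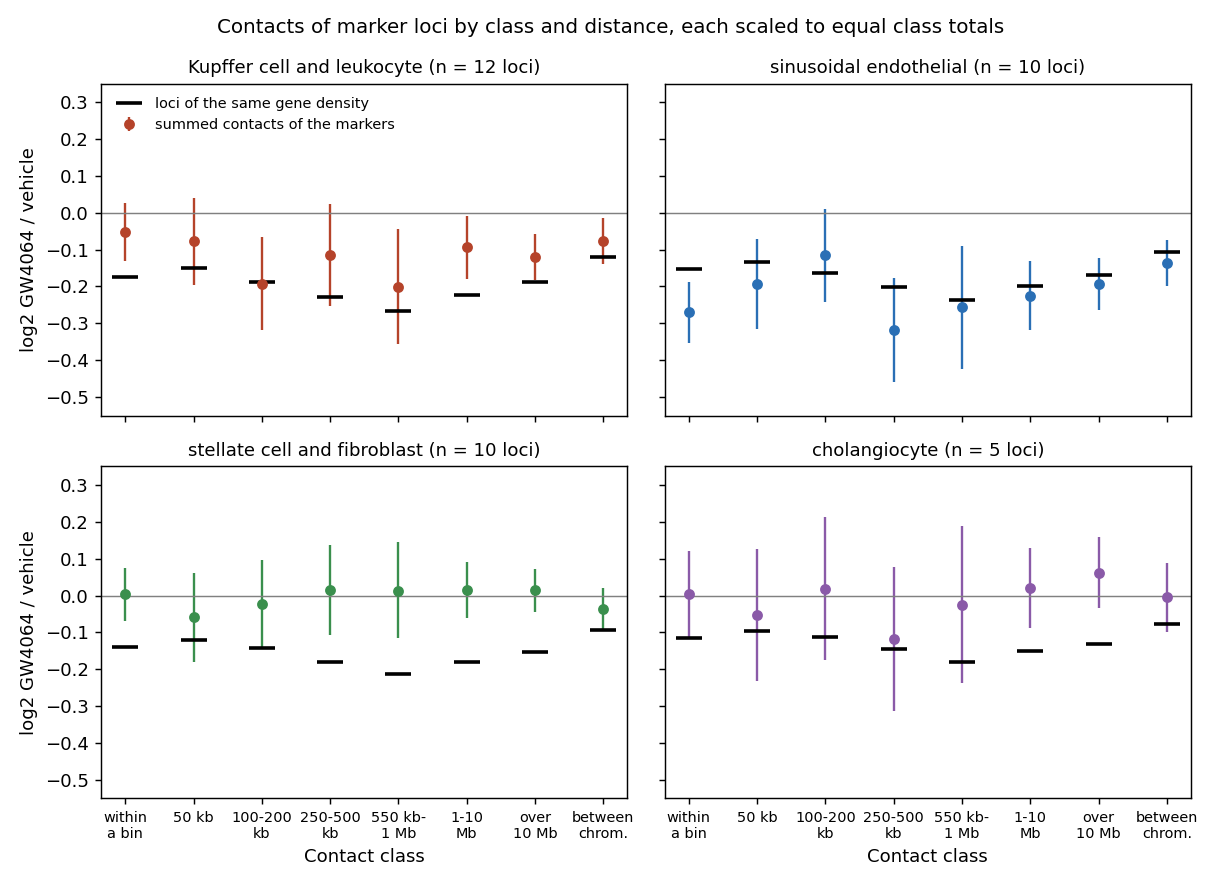
Log2 ratio (GW4064 over vehicle) of contacts summed over the marker loci of each cell type, by contact class and distance, each class scaled to equal totals, with exact 95% counting intervals as bars and black dashes for protein-coding loci of the same gene density. Endothelial markers lie at -0.27 within a bin, below the dash at -0.15, and stellate markers lie between -0.06 and 0.01 in every class.

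The division of contacts over the classes was close to that of all protein-coding loci. Counted per locus, contacts between chromosomes were 27.4% of the contacts of the 37 loci in vehicle (exact Clopper-Pearson interval 27.0% to 27.8%) and 23.1% in GW4064 (22.7% to 23.4%). All protein-coding loci together had 28.1% and 23.9%. The share was lower in GW4064 at 37 of 37 markers, as it was in the libraries as a whole. The median share of all protein-coding loci was also lower, 24.8% in GW4064 beside 28.6% in vehicle. How many of all loci had a lower share was not counted, so the 37 of 37 is not a result about the markers. Endothelial markers together had 28.8% and 25.2%. Cholangiocyte markers had 25.6% and 21.2%, but Cftr held many of their contacts, and without it they had 29.9% and 24.5%. Contacts at 1 to 10 Mb made up 17.3% of cholangiocyte contacts in vehicle and 17.9% in GW4064, beside 13.5% and 13.7% for all protein-coding loci. This excess came from Cftr, at 22.2% and 22.6%, and the other 4 loci had 12.65% (11.6% to 13.8%) and 11.9% (10.9% to 12.95%). Single loci kept their places: across the 37, the share between chromosomes in vehicle and in GW4064 had r = 0.943 (Pearson) and rho = 0.921 (Spearman). Col3a1 had the smallest share, 15.9% (13.6% to 18.4%) in vehicle and 11.7% in GW4064. The smallest shares of the other cell types were those of Ptprc (22.0% and 16.4%), Oit3 (23.1% and 19.8%) and Cftr (21.1% and 18.6%). Pdgfrb had 37.5% and 36.6%, Csf1r 36.5% and 34.1%, Clec4g 37.8% and 31.95%, Stab1 36.3% and 33.7%, and Epcam 32.5% and 29.0%. All but Epcam exceeded 36% in vehicle, so the loci with large shares come from 3 of the 4 cell types.

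The level of local contacts, taken as observed over the number expected from distance alone, differed more between single markers than between cell types. Summed per cell type it was 0.897 for Kupffer markers in vehicle (Poisson interval 0.866 to 0.928), 0.956 for endothelial (0.923 to 0.989), 0.964 for stellate (0.934 to 0.996) and 0.982 for cholangiocyte markers (0.933 to 1.03). In GW4064 the values were 0.812, 0.826, 0.955 and 0.95. Hepatocyte genes had 1.07 (1.05 to 1.10) in vehicle and 0.85 (0.832 to 0.869) in GW4064. In vehicle each of the 4 marker sums was thus below that of hepatocyte genes. In GW4064 the stellate and cholangiocyte sums of these markers were above the hepatocyte sum, but those of further markers were not. The medians of the density classes, averaged over the loci of each cell type in the same order, were 0.94, 0.95, 0.96 and 0.96 in vehicle. In GW4064 they were 0.81, 0.84, 0.86 and 0.88. For hepatocyte genes the density classes gave 0.94 in vehicle and 0.84 in GW4064. Without Cftr the cholangiocyte sum in GW4064 was 0.886 (0.836 to 0.939), an interval that holds the hepatocyte value. In the longer lists of further markers the GW4064 sums were 0.772 (0.752 to 0.793) for stellate and 0.826 (0.803 to 0.849) for cholangiocyte markers. Both were below the hepatocyte value, as was the further Kupffer sum of 0.79, and the further endothelial sum of 0.9025 was above it. Without Ptprc the Kupffer sums were 0.824 and 0.709. The interval of a ratio to expectation covers counting only, and the spread between loci is far wider: from 0.539 (Des) to 1.56 (Col1a2) in vehicle and from 0.431 (Pdgfrb) to 1.49 (Col3a1) in GW4064.

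Across the 37 loci, the level in vehicle and in GW4064 had r = 0.815 (Pearson) and rho = 0.776 (Spearman). Ptprc had 1.37 in vehicle and 1.48 in GW4064, Col3a1 had 1.42 and 1.49, Acta2 had 1.45 and 1.40, and Col1a2 had 1.56 and 1.32. With both libraries pooled these 4 lay at percentiles 96.6, 97.2, 96.4 and 96.2 of protein-coding loci. Of endothelial markers Oit3 had the highest level in vehicle (1.26, and 1.02 in GW4064), Kdr the highest in GW4064 (1.03), and Cdh5 the lowest in both (0.635 and 0.491). Of cholangiocyte markers Sox9 was highest in vehicle (1.23 and 1.08) and Epcam lowest in both libraries (0.776 and 0.722). Des and Pdgfrb lay at percentiles 6.1 and 7.43, and Adgre1, with 0.584 and 0.551, at 11.3. Cd68 lay above expectation in one library and below it in the other, with 1.253 (1.10 to 1.42) in vehicle and 0.732 (0.633 to 0.842) in GW4064. Other loci did the same, such as Cldn7 (1.18 and 0.78), Stab1 (1.17 and 0.756) and Cd3e (1.11 and 0.857). All loci of the densest class, that of Cd68 and Cldn7, had medians of 0.91 and 0.70. Vsig4 had 0.594 and 0.611, but it lies on chromosome X, where the 780 protein-coding loci had medians of 0.546 and 0.557 against 0.957 and 0.844 on autosomes. Without Vsig4 the Kupffer sum was 0.928 in vehicle and 0.834 in GW4064.

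**Figure D4:**
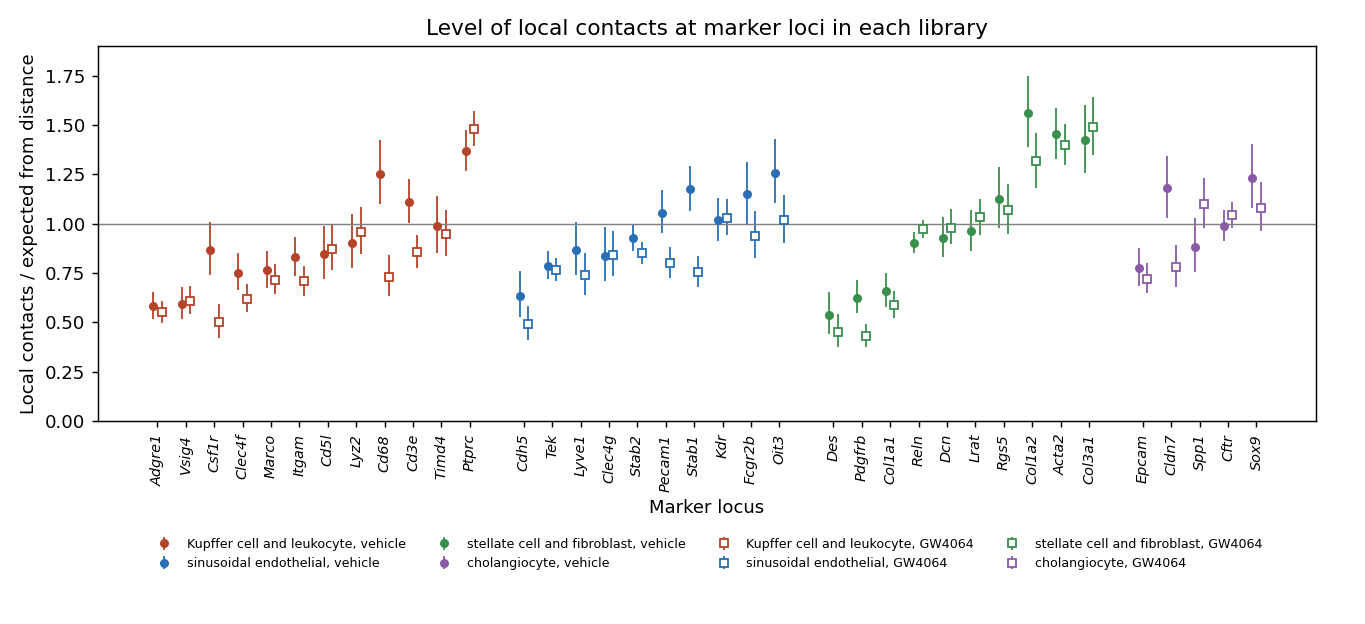
Local contacts of each marker locus over the number expected from distance, in vehicle (filled circles) and GW4064 (open squares), with Poisson 95% counting intervals, grouped by cell type and ordered by the pooled value. Ptprc, Col1a2, Acta2 and Col3a1 stand above 1.3 in both libraries, and Cd68 lies at 1.253 in vehicle and 0.732 in GW4064.

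Most marker loci lay in the gene-rich compartment, the part of the genome that a first eigenvector of the 250 kb contact map sets apart and that is oriented here by gene density. The count was 27 of 37 in vehicle and 26 in GW4064, beside 71.3% and 72.1% of all protein-coding loci. It was 11 of 12 for Kupffer and leukocyte markers in vehicle, 8 of 10 for endothelial, 5 of 10 for stellate and 3 of 5 for cholangiocyte markers. With 100 kb bins these counts in vehicle were 9, 7, 5 and 3. The cell types differ in gene density, with medians of 18, 13, 9 and 11 genes in 21 bins. Of all protein-coding loci in vehicle, 42.8% of the sparsest class and 80.0% of the densest lay in this compartment. At 250 kb Timd4 was the Kupffer marker outside it in both libraries, with eigenvector values of -1.31 and -1.48 on a scale with a root mean square of 1 per chromosome. Outside it in both libraries were also Col3a1 (-0.99 and -1.17), Cftr (-0.86 and -1.09), Dcn, Acta2, Rgs5, Reln, Sox9 and Tek. The sign differed between the libraries at 3 loci, each with values near 0: Vsig4 (0.035 and -0.004), Kdr (-0.19 and 0.23) and Col1a2 (0.008 and -0.089). Acta2, with 19 genes in 21 bins and many local contacts, was the marker of the 2 densest classes that lay outside. On chromosome 7, with Itgam and Lyve1, the second eigenvector followed gene density nearly as well as the first. Their absolute correlations were 0.333 and 0.392 in vehicle and 0.355 and 0.362 in GW4064. On chromosome 18, with Csf1r and Pdgfrb, they were 0.272 and 0.368 in vehicle and 0.285 and 0.341 in GW4064. The compartment of these markers is less certain.

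Single bin pairs with more contacts than expected joined some markers to named partners. The expected number took account of distance and of how many local contacts each bin had, and pairs lay 100 kb to 2 Mb apart. A pair with 10 contacts or more was called enriched from 2 times expectation upward. Of pairs with an end in a marker locus and at least 10 contacts, 46 of 152 were enriched in vehicle (30.3%), 92 of 272 in GW4064 (33.8%) and 24 of 117 in both libraries (20.5%). Over all bin pairs the shares were 22.6%, 21.7% and 13.6%, and over pairs with an end in a protein-coding locus 27.4%, 27.6% and 18.2%. The markers' share in both libraries therefore lies near that of other genes. At 3 times the expected number, 5 pairs were enriched in both libraries, 4 of them of stellate markers. The share over all bin pairs at 3 times was not counted, so this is not a result about the markers.

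With both libraries pooled, the pairs with the highest ratios over expectation were those of stellate markers. Their share of pairs enriched in both libraries was nevertheless the lowest of the 4 cell types, 7 of 47 (14.9%). It was 23.1% for Kupffer and leukocyte, 26.7% for endothelial and 21.4% for cholangiocyte markers. Lrat contacted the bin of Map9, a microtubule-associated protein gene 500 kb away (chromosome 3, 82350001 to 82400000), 19 times in vehicle and 30 times in GW4064, 5.59 times (Poisson interval 3.37 to 8.73) and 5.38 times (3.63 to 7.68) the expected number. Col1a1 and a bin 150 kb away that holds Tmem92 had 15 and 26 contacts, 3.79 and 5.43 times. Rgs5 and a bin 250 kb away with Hsd17b7, an enzyme of sterol synthesis, and Ccdc190 had 25 and 30 contacts, 4.77 and 4.42 times. Among endothelial markers, Tek had 2 pairs to the same bin of Ift74 and Lrrc19, 200 kb away (2.78 and 3.28 times) and 150 kb away (2.64 and 3.29 times).

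Among Kupffer and leukocyte markers, Marco and a bin 350 kb away had 11 contacts in each library, 4.06 and 3.42 times the expected number. Cd3e contacted a bin 100 kb away with Jaml, an adhesion molecule of leukocytes, Scn2b and Scn4b 25 and 28 times, 2.67 and 3.94 times. Cd68 had 16 and 12 contacts with a bin 250 kb away that holds Slc2a4, Eif5a and other genes, 2.76 and 3.35 times. Of cholangiocyte markers, Sox9 contacted a bin 300 kb away that holds no protein-coding gene 15 and 14 times, 2.85 (1.6 to 4.7) and 2.81 (1.54 to 4.71) times. A second such bin lay 350 kb away (2.53 and 2.39 times). Spp1 contacted the bin of Dmp1, a gene of the same family of phosphoproteins, 12 and 25 times, 2.61 and 2.65 times. The ratios of these pairs lay within each other's counting intervals in the 2 libraries.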

How the data were processed

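Foxa2 HiChIP of mouse liver was analysed from 1 vehicle and 1 GW4064 library. HiC-Pro, Bowtie2 2.2.9 and the build mm10 are named per the submitters' processing notes. Filters on reads, removal of duplicates, pooling of animals and the version of HiC-Pro were not stated in those notes. As deposited, the matrices hold raw counts of contacts per pair of 50 kb bins, with no normalization. The deposited bin tables, identical for both libraries with 54521 bins, hold the bin number, an index with no other unit. Bins with under 100 contacts over both libraries were left out of local contacts and expected numbers. Unmappable sequence, restriction sites and immunoprecipitation all affect raw counts, and were not corrected.

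Gene spans came from RefSeq on GRCm38.p6, and 145 of 145 list genes matched. Ratios have exact conditional binomial intervals, shares exact Clopper-Pearson intervals and ratios to expectation Poisson intervals. Only the conditional binomial intervals were checked on simulated data, with counts drawn from the binomial that they assume. That check does not show how the intervals perform on real contacts. Duplicate reads can make all these intervals too narrow. With 1 library per group no test was run. Density matching uses the medians of 5 classes of protein-coding loci. The compartments are first eigenvectors of balanced maps.

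The markers, lists and tests were chosen with earlier results of these data known. All 37 markers could be named. Otherwise the list extremes and the 3 highest bin pairs per cell type were. One of these pairs, of an endothelial marker, is not reported here. Alternatives were other scalings, windows, contact classes, bins, thresholds and depths. Scripts ran on Python 3.11.15 with pandas 2.3.3 and numpy 2.4.6, and intervals came from scipy 1.17.1. Figures were drawn with matplotlib 3.10.9.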

Additional observations from a re-analysis of the deposited data

Results flagged for a closer look

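Chromosome Y was left out of every comparison, and both libraries held contacts with both ends on it: 17291 in vehicle, over 1673 of 1835 bins with any contact, and 27904 in GW4064, over 1687 bins. They are listed because they lie outside the comparisons, and nothing was tested on them.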

How the results depend on the processing

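No paired analysis was possible because each group holds 1 library and no value comes from a test. Of the settings tried, the window up to 500 kb, the middle bin of each gene and a minimum of 200 local contacts each counted 8 markers lower and 0 higher. At 500 kb 7 of the 8 were shared, with Des in place of Cdh5. All contacts of the bins gave 9 and 0, beside 27% and 0.126% of all loci. Scaling to equal total contacts or to the median protein-coding locus gave 5 lower and 1 higher, beside 15% and 8.69% of all loci for equal totals and 15.7% and 7.81% for the median locus. Subtracting the median of the density class gave 3 and 2, beside 9.34% and 9.28%, contacts within a bin 11 and 2, and 1.5-fold 4 and 0. The summed log2 ratio of Kupffer markers, -0.14, reversed to 0.02 with equal total contacts, to 0.00 with the median locus and to 0.06 minus the density median, was -0.05 within a bin and -0.21 without Ptprc. In the order equal total contacts, median locus and density median, endothelial markers moved from -0.21 to -0.05, -0.06 and -0.03, stellate markers from -0.01 to 0.14, 0.13 and 0.14, and cholangiocyte markers from -0.04 to 0.11, 0.10 and 0.08. These follow from the shift of all loci that each scaling makes. The stellate sum was also -0.08 with the middle bin and -0.08 without Reln, and the cholangiocyte sum -0.14 without Cftr. Contacts over expected moved to 0.859 for endothelial markers in GW4064 with the 500 kb window. With the middle bin they moved to 1.05 and 0.998 for stellate and 1.04 and 1.01 for cholangiocyte markers in vehicle and GW4064, and without Vsig4 to 0.928 for Kupffer markers in vehicle. Enriched pairs in both libraries numbered 24, 5 at 3 times the expected number and 18 with GW4064 thinned to 78.2%. The shares over all bin pairs at 3 times and with thinning were not counted. The gene-rich compartment held 24 and 25 markers at 100 kb. Settings that leave out a marker were chosen after seeing the data. At 102 contacts a log2 ratio such as that of Des has an interval of -0.64 to 0.14, so smaller differences were not detectable at this depth.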

Other observations

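Contacts between markers on different chromosomes were few. The expected number is what the contacts of each locus with the other's whole chromosome give. The 619 pairs of marker loci on different chromosomes held 12 contacts in vehicle, 1.09 times the expected number (Poisson interval 0.562 to 1.9), and 11 in GW4064, 1.02 times (0.508 to 1.82). Pairs of 1 marker and 1 hepatocyte locus held 10 and 11 contacts, 0.831 (0.398 to 1.53) and 0.998 times (0.498 to 1.79). Within a cell type each library held 0 to 2 such contacts, too few to describe.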
